A study of Mus musculus with 20 samples.

Results

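The genes described here are Snhg3, the noncoding host gene of the SNORA73 small nucleolar RNAs (snoRNAs), its protein-coding neighbour Rcc1, and 6 other noncoding snoRNA host genes, Snhg1, Snhg5, Snhg6, Snhg8, Snhg12 and Gas5. They were taken by symbol, whatever their values, and make up 8 of the 53028 genes in the table. All 8 passed the filter on low counts in every comparison. Livers of male C57BL/6J mice were studied after knockdown of SNORA73 in vivo with a locked nucleic acid (LNA), a chemically stabilised antisense oligonucleotide. One group of 5 mice (mice 1, 2, 3, 8 and 9) received an LNA against GFP, the control, and the other 5 (mice 4, 6, 10, 11 and 12) received the LNA against SNORA73. According to the design text, each mouse was given 3 mg/kg by intraperitoneal injection, starting at an age of 8 weeks, on alternate days for 3 injections, and was killed 2 days after the last one. The sample labels spell the target Snora37, where the design text and the methods name SNORA73. From each liver 1 library was made of total RNA (the input to the gradient) and 1 of RNA from the polysome fractions, the part of a sucrose gradient that holds RNAs carrying several ribosomes, after cycloheximide had been given to stall ribosomes. This gave 20 libraries from 10 mice.

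A snoRNA host gene is transcribed and spliced like a messenger RNA, while the snoRNAs are trimmed out of its introns. Box H/ACA snoRNAs such as SNORA73 guide pseudouridylation or processing of ribosomal RNA, and box C/D snoRNAs guide ribose methylation. The spliced exons of noncoding hosts carry only short open reading frames, and for hosts such as Gas5 and Snhg1 they are known to be engaged by ribosomes and removed by nonsense-mediated decay. Many hosts start with a run of pyrimidines, the 5′ terminal oligopyrimidine (TOP) element that couples translation of messenger RNAs for ribosomal proteins to the mTOR kinase. Rcc1 encodes the chromatin-bound exchange factor that loads GTP on Ran and so sets the direction of nuclear transport.

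In the RefSeq annotation of GRCm38.p6 the host genes lie on 5 chromosomes. Snhg3 spans chr4:132351933-132353686 and holds 2 annotated snoRNAs, Snora73a and Snora73b. Rcc1 spans chr4:132331919-132345750, holds none, and lies 6182 bases from Snhg3. Snhg12 (chr4:132308678-132311024, 4 snoRNAs) lies in the same stretch, 40908 bases from Snhg3. Snhg1 is at chr19:8723487-8726326 with 8 annotated snoRNA genes, Snhg5 at chr9:88521052-88522897 with 2, and Snhg6 at chr1:9942025-9944118 with 1, Snord87. Snhg8 is at chr3:123507552-123508336 with 1, Snora24, and Gas5 at chr1:161034601-161038539 with 8.

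The oligonucleotides are shown because they define the treatment. The study lists 2 LNAs against SNORA73. It names LNA 2 for its further work in liver, without naming the LNA again for the sequenced livers. Capitals mark the locked bases, and both oligonucleotides are written 5′ to 3′.
SNORA73 LNA 1: AAGTCgtaggaatatGCAGG
SNORA73 LNA 2: GACTCtgagaagtcgTAGGA
Each has 20 bases, of which 10 are locked. The first 11 bases of LNA 1 (aagtcgtagga) are the last 11 of LNA 2.

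The annotated transcription starts are shown because the pyrimidine element of the host genes lies there. RefSeq start windows (GRCm38.p6) were matched for 7 of the 8 genes, and Gas5 had 2. The stretches run from 40 bases before the start into the transcript, 5′ to 3′ on the transcribed strand, and capitals mark a run of at least 4 C or T that covers the first transcribed base and the letters TATA. TATA reads the same on both strands.
Snhg3, chr4:132353637-132353726, minus strand: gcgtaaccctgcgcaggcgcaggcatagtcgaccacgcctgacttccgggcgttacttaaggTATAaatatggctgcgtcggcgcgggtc
Rcc1, chr4:132345731-132345790, minus strand: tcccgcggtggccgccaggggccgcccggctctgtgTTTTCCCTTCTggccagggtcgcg
Snhg1, chr19:8723447-8723536, plus strand: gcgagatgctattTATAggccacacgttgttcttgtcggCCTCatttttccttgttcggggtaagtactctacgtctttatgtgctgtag
Snhg5, chr9:88522848-88522937, minus strand: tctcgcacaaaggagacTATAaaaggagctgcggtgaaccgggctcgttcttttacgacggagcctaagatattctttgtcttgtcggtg
Snhg8, chr3:123508287-123508376, minus strand: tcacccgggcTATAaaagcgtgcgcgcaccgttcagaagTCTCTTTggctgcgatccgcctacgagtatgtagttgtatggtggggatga
Snhg12, chr4:132308638-132308727, plus strand: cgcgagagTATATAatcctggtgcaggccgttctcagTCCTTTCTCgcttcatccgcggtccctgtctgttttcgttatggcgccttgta
Gas5, chr1:161035126-161035215, plus strand: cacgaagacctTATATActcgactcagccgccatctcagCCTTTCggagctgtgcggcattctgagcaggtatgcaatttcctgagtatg
The pyrimidine run had 11 bases in Rcc1, 9 in Snhg12, 7 in Snhg8, 6 at this start of Gas5 and 4 in Snhg1. It was not found over the annotated start of Snhg3, of Snhg5 or at the other start of Gas5. Such a run covered 14% of the 32851 RefSeq start windows. TATA with its first base 35 to 20 bases before the start was found in Snhg1, Snhg5, Snhg8, Snhg12 and the Gas5 start shown, against 5.08% of all windows. In Snhg3 these letters stood only inside the transcribed part, 23 bases from the start.

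The values are estimated counts per gene, scaled to a common library size (CPM) with library factors from the trimmed mean of M values (TMM). Total counts ran from 14852951 to 42023390 per library. Genes encoded in mitochondria held 11.2% to 15.4% of the counts in total RNA and 1.76% to 3.89% in polysome RNA. A CPM is a share of a library, so a lower CPM in polysome RNA is a smaller share of that library and not a number of molecules. Exon lengths differ between the genes, and levels are therefore compared within a gene. All 5 hepatocyte markers had means of at least 3248 CPM in every group, while the 3 lymphocyte markers stayed below 1 CPM in all libraries. The snoRNAs themselves were hardly represented in these polyA-selected libraries. Snora73a had 0 to 2 counts and was at 0 in 17 of 20 libraries, and Snora73b had 0 to 4 counts and was at 0 in 11. The fall in SNORA73 can therefore not be read from these libraries.

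Gas5, Snhg6 and Snhg8 were depleted from polysomes in the control livers. Gas5 fell by 1.38 on the log2 scale, Snhg6 by 1.47 and Snhg8 by 1.26, so that each had about 0.36 to 0.42 of its total RNA level. The other 5 genes, Snhg3, Snhg1, Snhg5, Snhg12 and Rcc1, were not called. Thus 3 of 8 genes were called lower and 0 higher in GFP LNA livers, where 24.0% of the 13283 genes tested were called lower, 24.7% higher and 48.7% in either direction (edgeR's quasi-likelihood test with Benjamini-Hochberg adjustment, false discovery rate below 0.05). The share of the 8 genes called is near these background shares, and the results below are on the single genes.

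Gas5, a host of box C/D snoRNAs whose RNA accumulates when growth stops, had 109, 109, 89.8, 105 and 79.5 CPM in total RNA of GFP LNA mice 1, 2, 3, 8 and 9. In their polysome RNA it had 49.0, 37.6, 39.1, 28.7 and 36.9 CPM. The lowest total RNA library was thus above the highest polysome library, a separation that 17.5% of all tested genes showed in this direction. The log2 fold change was -1.38 ± 0.14 (SE) with an adjusted p of 1.01e-05 (edgeR), and 3.73% of the tested genes had a lower value. In SNORA73 LNA mice 4, 6, 10, 11 and 12 it had 89.9, 82.4, 71.3, 92.7 and 82.7 CPM in total RNA, and 55.4, 41.5, 42.2, 51.1 and 38 CPM in polysome RNA. Here too the groups did not overlap, which held for 11.7% of tested genes in this direction. This was a log2 fold change of -0.87 ± 0.14 (SE) with an adjusted p of 0.000592 (edgeR).

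Snhg6, the host of Snord87, showed the lowest value of the 8 genes. Total RNA of GFP LNA mice 1, 2, 3, 8 and 9 had 16.3, 16.8, 13.3, 14 and 11.2 CPM, and polysome RNA 6.75, 4.54, 5.38, 4.95 and 4.43 CPM. In SNORA73 LNA mice 4, 6, 10, 11 and 12 the total RNA values were 13.1, 13.3, 9.66, 17.2 and 11.2 CPM and the polysome values 4.92, 4.35, 4.19, 6.78 and 4.80 CPM. Total and polysome libraries overlapped in neither group. For Snhg6 the log2 fold change was -1.47 ± 0.15 (SE, edgeR adjusted p = 1.10e-05) in GFP LNA livers and -1.36 ± 0.18 (SE, adjusted p = 0.000301) in SNORA73 LNA livers. Of all tested genes, 2.95% and 2.44% had lower values in these comparisons.

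Snhg8, the host of Snora24, had 36.1, 33.8, 29.1, 22.7 and 25.6 CPM in total RNA and 17.4, 14.2, 12, 9.89 and 8.52 CPM in polysome RNA of GFP LNA mice 1, 2, 3, 8 and 9. These values did not overlap. The SNORA73 LNA mice 4, 6, 10, 11 and 12 had 30.5, 29.3, 19.1, 39.0 and 25.9 CPM in total RNA and 17.2, 7.83, 15.0, 21.3 and 14.7 CPM in polysome RNA. Here the groups overlapped, since total RNA of mouse 10 lay below polysome RNA of mouse 11, but polysome RNA was below total RNA in each of the 5 mice. The log2 fold change was -1.26 ± 0.19 (SE, edgeR adjusted p = 0.000198) in GFP LNA and -0.92 ± 0.24 (SE, adjusted p = 0.0113) in SNORA73 LNA livers. In SNORA73 LNA livers the same 3 genes as in the controls were called lower and 0 of the 8 higher, against 15.8% of 13063 genes called lower, 17.2% higher and 33.0% in either direction.

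**Figure D1:**
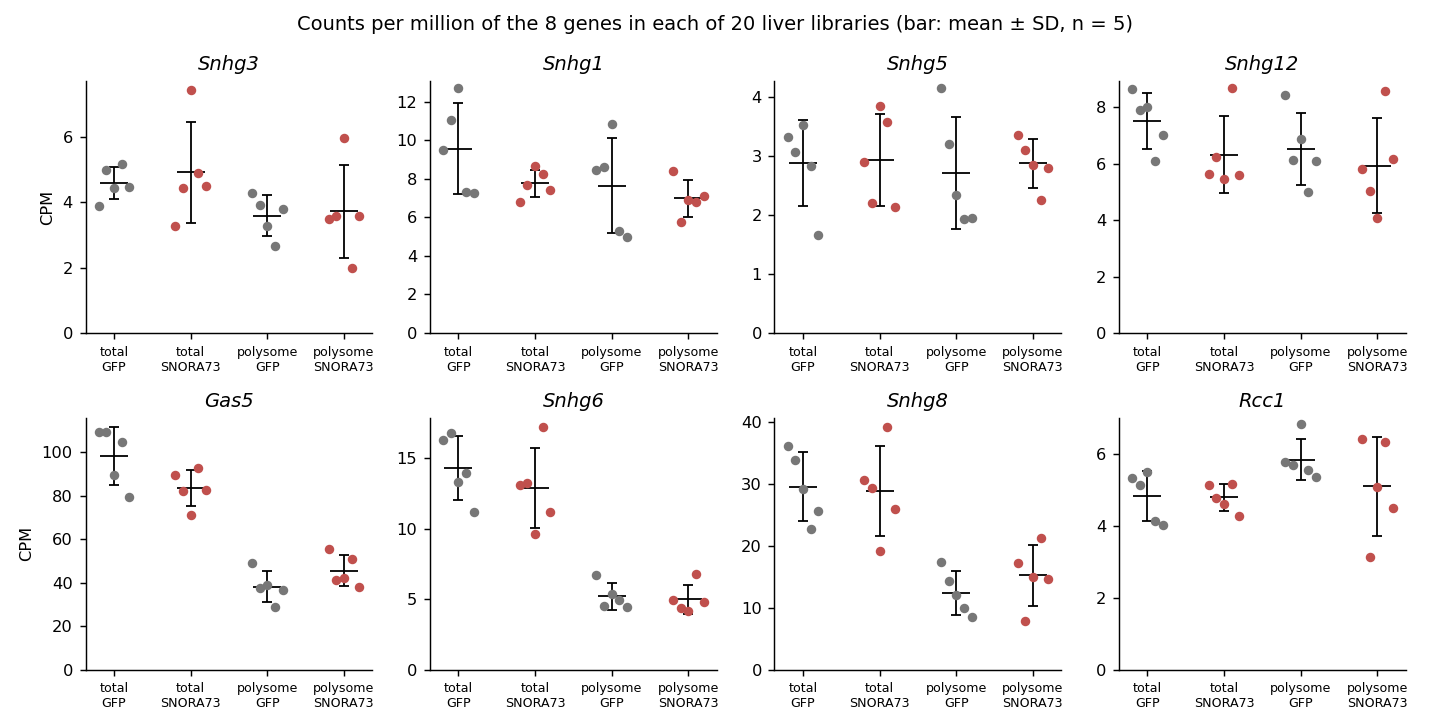
Level in CPM (linear axis from 0) of the 8 genes in each library, by RNA and LNA. Points are single livers, gray for GFP LNA and red for SNORA73 LNA, and bars give the mean ± SD (n = 5). Gas5 and Snhg6 have no polysome library as high as their lowest total RNA library of the same LNA group, while Snhg3, Snhg1, Snhg5, Snhg12 and Rcc1 overlap between the RNAs.

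Snhg3, the host of SNORA73 itself, was not called in either group. It was present at 3.89, 4.97, 4.44, 5.17 and 4.46 CPM in total RNA of GFP LNA mice 1, 2, 3, 8 and 9, behind which stood 123 to 201 counts. Polysome RNA of these mice had 4.28, 3.91, 3.28, 2.66 and 3.81 CPM, from 51 to 125 counts. The ranges overlapped through mouse 1, whose polysome value was above its total RNA value. Snhg3 had a log2 fold change of -0.36 ± 0.15 (SE, 95% confidence interval -0.69 to -0.04), and its adjusted p of 0.0603 (edgeR) missed the threshold. Snhg3 passed it without mouse 1 (log2 fold change -0.48, adjusted p = 0.0299, edgeR), with DESeq2 (-0.37, adjusted p = 0.0471), and when genes needed over 1 CPM in every library (-0.41, adjusted p = 0.0320, edgeR). In SNORA73 LNA mice 4, 6, 10, 11 and 12 it had 3.27, 4.44, 7.43, 4.91 and 4.51 CPM in total RNA and 3.47, 3.58, 5.97, 1.99 and 3.58 CPM in polysome RNA. Mouse 10 was highest and the remaining mice stayed below 5 CPM in both RNAs. The log2 fold change there was -0.39 ± 0.28 (SE, adjusted p = 0.305, edgeR), near the value in the controls but with a larger error.

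The other 3 noncoding hosts were not called in either group in the test without a mouse term. Snhg1, which hosts box C/D snoRNAs, ran from 7.25 to 12.7 CPM in total RNA and from 4.96 to 10.8 CPM in polysome RNA of GFP LNA livers, and from 6.81 to 8.65 and from 5.75 to 8.40 CPM in SNORA73 LNA livers. Polysome RNA was below total RNA in each of the 5 GFP LNA mice and in 4 of 5 SNORA73 LNA mice. Its log2 fold change in GFP LNA livers was -0.33 ± 0.24 (SE, adjusted p = 0.267, edgeR), and with the mouse as a replicate block it was -0.35 with an adjusted p of 0.00716, which passed the threshold. In SNORA73 LNA livers it was -0.15 ± 0.14 (SE, adjusted p = 0.434).

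Snhg12, the host near Snhg3, ran from 6.08 to 8.63 CPM in total RNA and from 5.0 to 8.43 CPM in polysome RNA of GFP LNA livers, and from 5.46 to 8.69 and from 4.06 to 8.56 CPM in SNORA73 LNA livers. Its log2 fold changes were -0.22 ± 0.15 (SE, adjusted p = 0.262, edgeR) and -0.09 ± 0.21 (SE, adjusted p = 0.766). Snhg5, a host of box C/D snoRNAs, rested on few reads, with 46 to 154 counts per library in total RNA of GFP LNA livers. It ran from 1.67 to 3.52 CPM in total and from 1.93 to 4.14 CPM in polysome RNA there, and from 2.13 to 3.84 and from 2.26 to 3.36 CPM in SNORA73 LNA livers. Its log2 fold changes of -0.10 ± 0.25 and -0.02 ± 0.22 (SE) were smaller than their errors, with adjusted p of 0.760 and 0.958 (edgeR).

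Rcc1, the only messenger RNA of the 8, was the only one whose estimate lay above 0 in polysomes. Total RNA of GFP LNA mice 1, 2, 3, 8 and 9 had 5.33, 5.15, 5.52, 4.15 and 4.02 CPM, and polysome RNA had 5.79, 5.69, 6.83, 5.57 and 5.38 CPM. Polysome RNA was higher in 5 of 5 of these mice, but the ranges overlapped and the log2 fold change of 0.27 ± 0.14 (SE) was not called (adjusted p = 0.130, edgeR). In SNORA73 LNA mice 4, 6, 10, 11 and 12 it had 5.15, 4.79, 4.60, 5.16 and 4.29 CPM in total and 6.43, 3.14, 5.08, 6.35 and 4.51 CPM in polysome RNA. Mouse 6 was the only mouse with less in polysomes, and the log2 fold change was 0.09 ± 0.19 (SE, adjusted p = 0.751).

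Within mice, the ratio of polysome to total CPM put the 8 genes in the order Snhg6, Gas5, Snhg8, Snhg3, Snhg1, Snhg12, Snhg5 and Rcc1, from lowest to highest. The geometric mean over all 10 mice was 0.376 for Snhg6, 0.457 for Gas5 and 0.462 for Snhg8. It was 0.757 for Snhg3, 0.838 for Snhg1, 0.890 for Snhg12, 0.963 for Snhg5 and 1.12 for Rcc1. The ratio was below 1 in 10 of 10 mice for the lowest 3 genes, in 8 for Snhg3 and Snhg12, in 9 for Snhg1, in 4 for Snhg5 and in 1 for Rcc1. The widest step between neighbours was from Snhg8 to Snhg3, 0.71 ± 0.63 on the log2 scale (SD over 10 mice), in this order in 9 of 10 mice. The exception was mouse 11, where Snhg3 had a ratio of 0.406 and Snhg8 of 0.544. The steps between the other neighbours were smaller than the SD of single mice. Snhg6 was below Gas5 by 0.28 ± 0.31 (SD) and in 9 of 10 mice, and below Snhg8 by 0.30 ± 0.38 and in 8. Gas5 was below Snhg8 in only 5 of 10 mice, and these 2 genes changed places between treatments, with mean log2 ratios of -1.37 and -1.27 in GFP LNA and -0.88 and -0.96 in SNORA73 LNA mice. All other places in the order of means were the same in both treatments. From Snhg3 upward, neighbours stood in this order in 5 to 8 of 10 mice. Across the gap the order was more regular: Snhg6 had a lower ratio than each of the 5 upper genes in 10 of 10 mice, and Gas5 a lower one than Snhg1, Snhg5, Snhg12 and Rcc1 in 10 of 10.

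**Figure D2:**
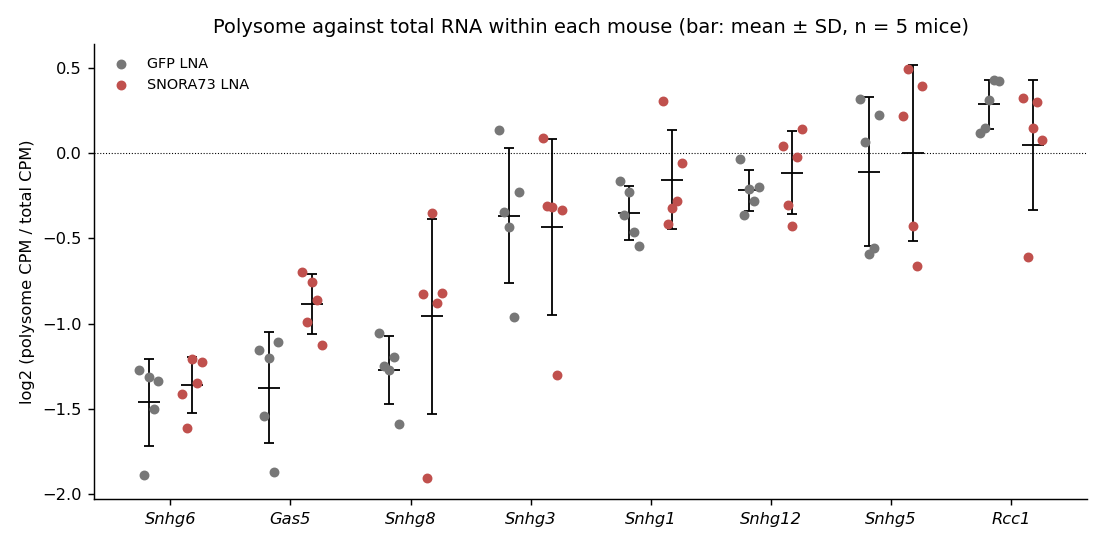
Log2 ratio of polysome CPM to total CPM for each gene within each mouse, gray for GFP LNA and red for SNORA73 LNA, with the mean ± SD of 5 mice. The dotted line is an equal level in both RNAs. Snhg6, Gas5 and Snhg8 are below it in all 10 mice, and Rcc1 is above it in all but 1.

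The hosts were set beside lists of related genes, each described by its counts and its median next to that of all genes tested. Among 9 further noncoding snoRNA hosts that could be tested, 3 were called lower and 0 higher in polysomes of GFP LNA livers, with a median log2 fold change of -0.46 against 0.03 for all genes, of which 24.0% were called lower. Snhg14, the host of imprinted snoRNA clusters, had -1.90 ± 0.35 and Dancr -1.12 ± 0.29 (SE, adjusted p of 0.000800 and 0.00725, edgeR). Snhg14 averaged 1.75 CPM in total and 0.473 CPM in polysome RNA of these livers, and Dancr 1.21 and 0.554 CPM. Both polysome means lay near the filter at 0.5 CPM, which either gene could pass through its total RNA libraries alone. Zfas1, named because it was the remaining one called, had -0.56 (adjusted p = 0.0165, edgeR). At the other end Snhg17 had 0.08 ± 0.23 and Snhg20 0.39 ± 0.33 (SE) and were not called. Of these 9 hosts, only Snhg14 was called in SNORA73 LNA livers, at -1.51 ± 0.37 (SE, adjusted p = 0.00840, edgeR), beside 15.8% of all tested genes called lower. It averaged 1.31 CPM in total and 0.449 CPM in polysome RNA there. The 8 genes had a median of -0.35 in GFP LNA and -0.27 in SNORA73 LNA livers. The 475 tested genes that RefSeq lists as lncRNA had a median of -0.12 in GFP LNA livers, with 90 called lower and 66 higher. These are smaller shares than the 24.0% and 24.7% of all tested genes called lower and higher.

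Protein-coding snoRNA hosts, many of them genes for ribosomal proteins, lay on both sides of 0. Of 40 tested, 15 were called lower and 7 higher in GFP LNA livers (median log2 fold change -0.16), beside 24.0% and 24.7% of all tested genes. In SNORA73 LNA livers 8 were called lower and 8 higher (median 0.05), beside 15.8% and 17.2% of all tested genes. At one end stood Tpt1, which encodes the translationally controlled tumour protein, at -1.35 ± 0.16, and the ribosomal protein gene Rps12 at -1.06 ± 0.13 (SE, adjusted p of 2.38e-05 and 3.82e-05, edgeR). At the other end were Ppan, a ribosome assembly factor, at 0.75 ± 0.18 (SE, adjusted p = 0.00399), and the nucleolar GTPase gene Gnl3 at 0.69 ± 0.30, which was not called (adjusted p = 0.0712). The estimates of Gas5 (-1.38 ± 0.14) and Snhg6 (-1.47 ± 0.15, SE) were below that of Tpt1 in GFP LNA livers, but within their errors of it. In SNORA73 LNA livers the lowest coding host was at -0.88. Snhg6 (-1.36 ± 0.18) was below it, and Snhg8 (-0.92 ± 0.24, SE) was within its error of it. These differences between genes were not tested.

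Of 13 genes for Ran and its partners, with which Rcc1 works, 5 were called lower and 6 higher in polysomes of GFP LNA livers (median log2 fold change 0.37), beside 24.0% and 24.7% of all tested genes. The import receptor gene Tnpo1 and the export receptor gene Xpo1 were lowest, at -0.996 ± 0.08 and -0.62 ± 0.18 (SE, adjusted p of 1.20e-06 and 0.0124, edgeR), and Rcc2 and Rangrf were highest, at 0.64 ± 0.13 and 0.75 ± 0.14 (SE, adjusted p of 0.00132 and 0.00104). The estimate of 0.27 for Rcc1 lay between these ends. Of 14 nonsense-mediated decay factors, whose pathway acts on the spliced RNA of hosts such as Gas5, 2 were called lower and 9 higher (median 0.56) in these livers, beside the same shares of all genes. Rbm8a, a core subunit of the exon junction complex, was highest at 1.46 ± 0.11, followed by Upf3a at 0.86 ± 0.10 (SE, adjusted p of 1.10e-06 and 3.50e-05). Smg1, the kinase of the pathway, was lowest at -0.50 ± 0.15 (SE, adjusted p = 0.0135, edgeR). In SNORA73 LNA livers the counts were 2 lower and 6 higher for Ran and its partners and 0 lower and 9 higher for the decay factors, beside 15.8% and 17.2% of all tested genes.

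**Figure D3:**
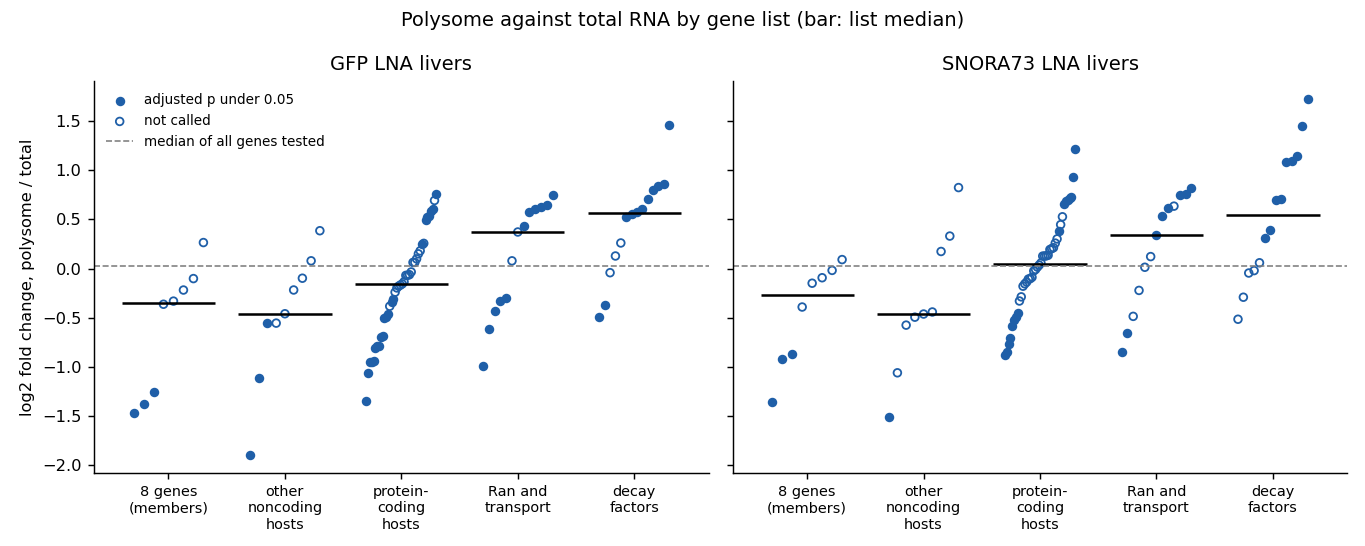
Log2 fold change of polysome against total RNA for the 8 genes, other noncoding snoRNA hosts, protein-coding snoRNA hosts, Ran and nuclear transport genes and nonsense-mediated decay factors, in GFP LNA livers (left) and SNORA73 LNA livers (right). Filled points had an adjusted p below 0.05 (edgeR), bars are list medians and the dashed line is the median of all genes tested. The 3 filled points of the 8 genes are Snhg6, Gas5 and Snhg8 in both panels.

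Other genes in the stretch of chromosome 4 around Snhg3 had values on both sides of 0. Trnau1ap, which encodes a factor of selenocysteine incorporation and lies between Snhg12 and Rcc1, was higher in polysomes by 1.06 ± 0.09 in GFP LNA and 0.87 ± 0.13 in SNORA73 LNA livers on the log2 scale (SE, adjusted p of 3.22e-06 and 0.000513, edgeR). Phactr4, a phosphatase and actin regulator that lies 2235 bases from Snhg3, was lower, at -0.58 ± 0.11 and -0.44 ± 0.16 (SE, adjusted p of 0.000838 and 0.0449). Snhg3, Rcc1 and Snhg12 had estimates between those of these 2 genes and were not called, and differences between the genes were not tested. In SNORA73 LNA livers the estimates of Phactr4 and Snhg3 lay within their errors of each other.

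**Figure D4:**
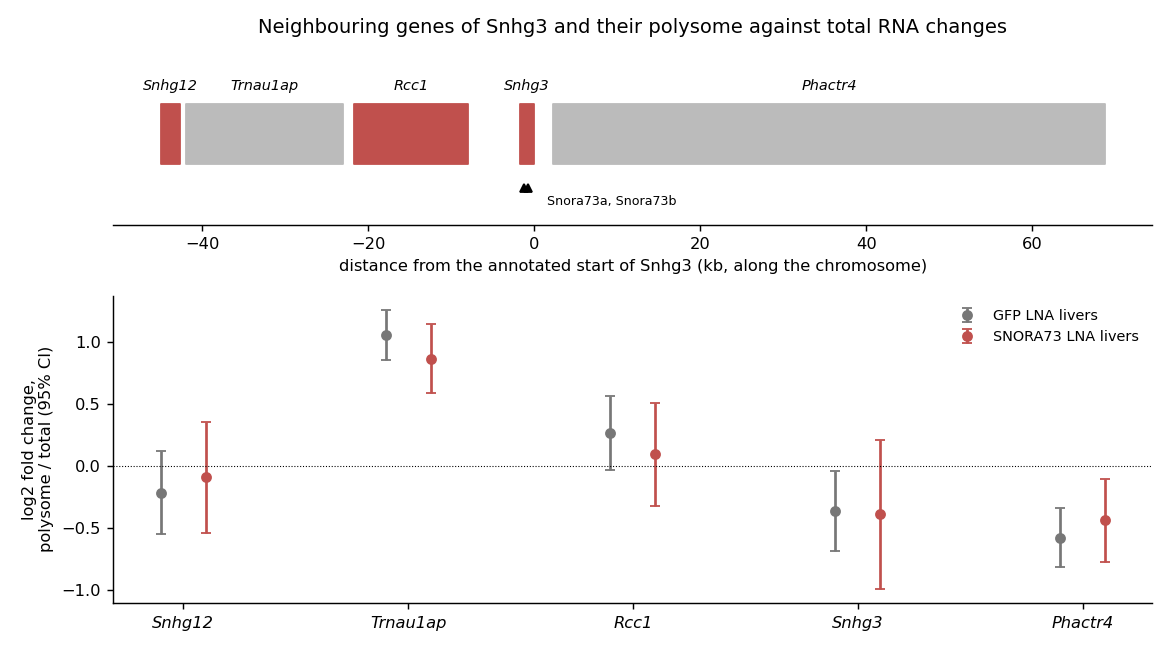
Top, genes around Snhg3 drawn to scale as the distance in kb from its annotated start, with Snhg3, Rcc1 and Snhg12 in red, their neighbours in gray, and triangles for Snora73a and Snora73b. Bottom, log2 fold change of polysome against total RNA with the 95% confidence interval (edgeR) in GFP LNA (gray) and SNORA73 LNA livers (red). Trnau1ap is the gene with the highest values and Phactr4 the one with the lowest.

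None of the 8 genes was called between SNORA73 LNA and GFP LNA livers. This comparison asks whether an oligonucleotide against an intronic snoRNA alters the spliced RNA of its host, of the neighbouring gene or of other hosts. In total RNA 0 of 8 were called, against 0.0303% of 13195 genes (0 lower, 4 higher), and in polysome RNA 0 of 8, against 0.0153% of 13060 genes (0 lower, 2 higher). At an unadjusted p below 0.05 there were 1141 and 1755 genes (8.65% and 13.4% of those tested), and 0 of the 8 were among them in either RNA. DESeq2 also called 0 of the 8 genes. In whole liver, fewer cells of a type and less RNA per cell cannot be told apart.

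Snhg3 averaged 4.59 ± 0.50 CPM in total RNA of GFP LNA livers and 4.91 ± 1.54 CPM in SNORA73 LNA livers (SD, n = 5 each). The log2 fold change was 0.10 ± 0.19 (SE, adjusted p = 0.923, edgeR), and its 95% confidence interval ran from 0.806 to 1.42 times the control level. Without mouse 10 the estimate was -0.10. In polysome RNA it averaged 3.59 ± 0.63 and 3.72 ± 1.43 CPM (SD, n = 5 each), with a log2 fold change of 0.05 ± 0.25 (SE, adjusted p = 0.953) and an interval from 0.711 to 1.51 times the control level. Its sign in either RNA turned with the scaling, to -0.06 and -0.11 with library totals alone, which also moved the median of all genes to -0.14 and -0.17. With all mice, a fall of Snhg3 to under 0.806 times the control level was thus outside the interval in total RNA. In polysome RNA this held for a fall to under 0.711 times. Smaller changes in either direction were inside each interval. When mouse 10 was left out, the polysome estimate was -0.18 on the log2 scale.

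Rcc1 averaged 4.83 ± 0.70 and 4.80 ± 0.37 CPM in total RNA (SD, n = 5 each), a log2 fold change of -0.02 ± 0.12 (SE, adjusted p = 0.991, edgeR) with an interval from 0.819 to 1.19 times the control level. In polysome RNA it averaged 5.85 ± 0.57 and 5.10 ± 1.37 CPM, at -0.20 ± 0.20 (SE, adjusted p = 0.711). The wider spread in SNORA73 LNA polysomes came from mice 6 and 12 below 5 CPM and mice 4 and 11 above 6 CPM.

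The 6 other hosts were not called in either RNA. In total RNA Snhg1 had -0.31 ± 0.16, Snhg12 -0.26 ± 0.15 and Gas5 -0.23 ± 0.11 (SE), the 3 lowest of the 8, with unadjusted p of 0.0728, 0.105 and 0.0577 and adjusted p of 0.637, 0.687 and 0.597 (edgeR). Snhg6 had -0.15 ± 0.15, Snhg8 -0.04 ± 0.18 and Snhg5 0.01 ± 0.23. In polysome RNA Snhg8 had 0.29 ± 0.25 and Gas5 0.25 ± 0.15, the highest of the 8, while Snhg12 and Snhg1 had -0.14 ± 0.22 and -0.14 ± 0.23 (SE, adjusted p between 0.511 and 0.833 for these 4). Snhg6 had -0.06 ± 0.19 and Snhg5 0.08 ± 0.24. Libraries of the 2 treatments overlapped for all 8 genes in both RNAs, where 1.84% and 3.23% of all tested genes did not.

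**Figure D5:**
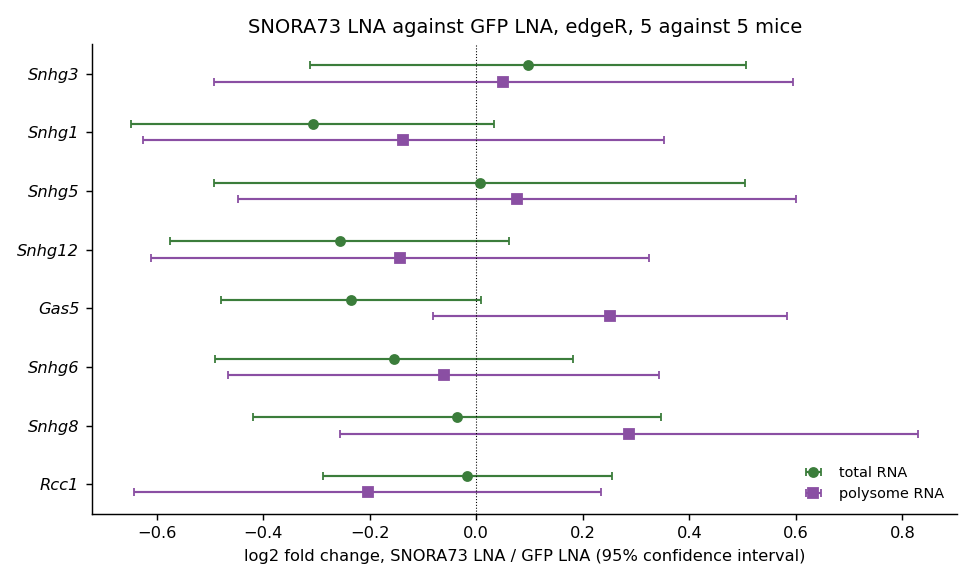
Log2 fold change of SNORA73 LNA against GFP LNA for the 8 genes in total RNA (green circles) and polysome RNA (purple squares), with 95% confidence intervals from edgeR (5 against 5 mice). All 16 intervals cover 0.

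Among the lists, the 9 further noncoding hosts had 0 called in either RNA and medians of -0.24 in total and -0.25 in polysome RNA. The 40 protein-coding hosts also had 0 called, with 30 below 0 in total RNA (median log2 fold change -0.09) and 12 below 0 in polysome RNA (median 0.07). Of all tested genes, 48.3% and 51.4% lay below 0, so that the coding hosts stood to the lower side in total RNA and to the higher side in polysome RNA. None of the 13 genes for Ran and its partners and none of the 14 decay factors were called in either RNA. The summed level of the 4 sinusoidal endothelial markers did not overlap between treatments, at 69.0 to 78.7 CPM with GFP LNA and 83.7 to 95.7 CPM with SNORA73 LNA in total RNA, and 65.1 to 72.6 and 79.0 to 89.6 CPM in polysome RNA. Of single tested genes, 1.84% and 3.23% did not overlap in these RNAs, and no such share was computed for sums. The Kupffer sums (69.7 to 115 and 62.4 to 110 CPM in total RNA) and the stellate sums (204 to 265 and 175 to 261 CPM) overlapped in both RNAs. Of the single endothelial markers only the lowest mean is given. It was 5.92 CPM with GFP LNA and 12.4 CPM with SNORA73 LNA in total RNA, and 7.12 and 14.3 CPM in polysome RNA. The marker that was lowest with GFP LNA thus made up part of the higher sums, which need not stand for all 4 markers. The part of the endothelial markers in the values of the 8 genes was not tested.

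The change in polysome loading with SNORA73 LNA was tested as an interaction, the polysome against total difference in SNORA73 LNA livers less that in GFP LNA livers. Of the 8 genes 0 were called, against 0.00725% of 13795 genes, with 401 genes (2.91%) at an unadjusted p below 0.05. Gas5 was the only 1 of the 8 among those, with a log2 difference of 0.49 ± 0.19 (SE, unadjusted p = 0.0205, adjusted p = 1.0, edgeR). Its ratio of polysome to total CPM was 0.449, 0.344, 0.435, 0.274 and 0.463 in GFP LNA mice 1, 2, 3, 8 and 9 and 0.617, 0.504, 0.592, 0.551 and 0.459 in SNORA73 LNA mice 4, 6, 10, 11 and 12. The groups overlapped only through mouse 12 and mouse 9, and the share of all genes with ratios this far apart was not computed. For Snhg3 the difference was -0.04 ± 0.33, for Rcc1 -0.19 ± 0.23 and for Snhg8 0.32 ± 0.32 (SE), and the remaining hosts lay between 0.07 and 0.17. The interval for Snhg3, from -0.73 to 0.64, covers differences in both directions.

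RNAs known to stay in the nucleus also had estimates above 0 in the interaction. The ratio of polysome to total CPM of Malat1 ran from 0.180 to 0.298 in GFP LNA mice and from 0.376 to 1.33 in SNORA73 LNA mice, and that of Neat1 from 0.333 to 0.488 and from 0.506 to 0.701. The Malat1 ratio of 1.33 was that of mouse 11 alone, and the next highest was 0.539 in mouse 6. From GFP LNA to SNORA73 LNA livers, median Malat1 went from 414 to 678 CPM in total RNA and from 87.8 to 273 CPM in polysome RNA. Median Neat1 went from 81.5 to 46.6 CPM in total RNA and from 30.6 to 31.3 CPM in polysome RNA. The higher Neat1 ratio thus came with less Neat1 in total RNA, and hardly more in polysome RNA. The share of all genes with ratios as far apart between treatments was not computed. Neither gene was called in the interaction (log2 differences 1.67 ± 0.55 and 0.56 ± 0.38, SE, both with an adjusted p of 1.0, edgeR). Kcnq1ot1, also listed as a nuclear RNA, had 0.23 ± 0.35 (SE, unadjusted p = 0.511, edgeR). Of the 40 protein-coding hosts, 3 had a difference below 0 (median 0.19), where 52.4% of all tested genes were below 0. Many of these hosts are genes for ribosomal proteins, and the remaining ones were not looked at apart. The part of nuclear RNA in polysome fractions in the Gas5 value was not tested.

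Across livers, correlations of Snhg3 with the other genes had both signs. Its Pearson r with the other 7 genes in log2 CPM ran from -0.59 to 0.31 over the 10 total RNA libraries (median -0.31) and from -0.52 to 0.48 over the 10 polysome libraries (median -0.12). The 15 pairs among the other 6 noncoding hosts had r from 0.16 to 0.86 (median 0.55) in total and from 0.14 to 0.87 (median 0.46) in polysome RNA. Mouse 10 had the highest Snhg3 level in both RNAs and the lowest TMM factor in total RNA (0.877). Without it, over 9 libraries, the median r of Snhg3 with the other 7 genes was 0.17 in total and -0.18 in polysome RNA, and that of the 15 host pairs 0.61 and 0.51. The sign of the median for Snhg3 in total RNA thus rested on this mouse. With Rcc1, r was -0.31 in total and -0.25 in polysome RNA. These are descriptions over libraries that hold both treatments, and total and polysome libraries come from the same mice. Of 13794 genes compared over all 20 libraries after the mean of each RNA was subtracted, the 5 with the highest r with Snhg3 were Ctbs (0.88), Twf1 (0.82), Gm8883 (0.82), Efcab14 (0.81) and Ptpn2 (0.80). For Ctbs, which encodes the lysosomal enzyme chitobiase, r was 0.91 within total and 0.91 within polysome libraries. Snhg5 ranked highest of the other hosts, at 1595 with r = 0.40. Without mouse 10, r over 18 libraries was 0.81 for Ctbs, 0.63 for Twf1, 0.58 for Gm8883, 0.76 for Efcab14, 0.72 for Ptpn2 and 0.35 for Snhg5. Ctbs then ranked 5, Efcab14 12, Ptpn2 41, Twf1 180 and Gm8883 367, so that 4 of the 5 genes left the leading 5.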

How the data were processed

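Total RNA and polysome RNA of 10 livers were sequenced as polyA-selected, paired, reversely stranded libraries. What was deposited is a table of estimated counts by gene. To make it, the authors trimmed with fastp, set aside ribosomal RNA reads with Bowtie2, and estimated transcript counts with kallisto, which were then added up by gene (GRCm38 per the labels). As kallisto divides reads among compatible transcripts, counts of genes that overlap or resemble others are uncertain. All 20 columns were matched to a mouse by their titles. The study names LNA 2 for its further work in liver and does not name the LNA again for the sequenced livers.

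Counts were rounded and tested with edgeR 4.0.16 (R 4.3.3, quasi-likelihood, TMM, genes over 0.5 CPM in at least 4 libraries of the fit, Benjamini-Hochberg over all genes tested, threshold 0.05). Each comparison used its own libraries, and the interaction used all 20, without a mouse term. The scripts were tested on simulated data, with 200 genes changed by 1 on the log2 scale in each comparison. Of these, 94.5% to 98.0% were recovered in the comparisons of 2 groups, and only 53.5% in the interaction. Total and polysome libraries with the same mouse number were taken as 1 liver. Their deviations from the group means correlated (r of 0.15 to 0.69 over 10 mice). Correlations between different mice were not set beside these, so the pairing rests on the titles. Alternatives were limma-voom (limma 3.58.1), DESeq2 1.42.0, other scalings and filters, a fit of all 20 libraries, leaving out mitochondrial genes or mice, and the replicate block. The study analysed 4 mice per group and did not name those left out, so 8 mice were tried as an earlier analysis of these data chose them, without mice 9 and 10. Of 14 further noncoding hosts listed, 11 had a row and 9 were tested. Like genes were ranked on log2(CPM + 0.5). Named examples are the 2 highest and 2 lowest genes of a list by polysome against total RNA in GFP LNA livers, of which 1 is not reported here. The correlations without mouse 10 were added after seeing the data. The members and lists were chosen with earlier results of these data known. Mice are the replicates. Intervals and counts at 0 cover counting and replicate error only.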

Additional observations from a re-analysis of the deposited data

Results flagged for a closer look

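In 3 of 32 groups of 5 libraries (8 genes in 4 groups), 1 library stood apart from the other 4, with a gap above Dixon's 95% critical value of 0.710 of the range. Chance flags about 1 in 20 groups. Rcc1 had 6.83 CPM in polysome RNA of GFP LNA mouse 3, Snhg6 had 6.78 CPM in polysome RNA of SNORA73 LNA mouse 11, and Snhg12 had 8.69 CPM in total RNA of SNORA73 LNA mouse 11. Leaving out mouse 3 or mouse 11 changed no call of these 3 genes.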

How the results depend on the processing

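Snhg6, Snhg8 and Gas5 were called lower in polysomes of both groups under all 15 alternatives run for each comparison, with log2 fold changes from -1.52 to -1.36, -1.32 to -1.19 and -1.44 to -1.27 in GFP LNA and from -1.43 to -1.34, -1.04 to -0.78 and -0.94 to -0.83 in SNORA73 LNA livers. In GFP LNA livers Snhg3 was also called with DESeq2 (-0.37), above 1 CPM in every library (-0.41) and without mouse 1 (-0.48). With the mouse as a replicate block, Snhg1 was called there (-0.35), and the block changed no other call of the 8 genes. None of the 8 was called between treatments, or in the interaction, under the 19 alternatives run for each.

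Estimates near 0 changed sign. Snhg5 in polysome against total RNA of SNORA73 LNA livers had 0.043 with limma-voom, 0.021 with library totals, 0.090 with 8 mice and 0.00082 with the replicate block. Between treatments in total RNA, Snhg3 had -0.056 with library totals and -0.10 with 8 mice, and Snhg8 0.034 with 8 mice. Snhg5 had -0.045 with limma-voom, -0.00071 with DESeq2, -0.00081 with its size factors, -0.15 with library totals, -0.022 without a filter, -0.015 above 1 CPM and -0.26 with 8 mice. In polysome RNA, Snhg3 had -0.0054 with limma-voom, -0.11 with library totals and -0.16 with 8 mice, and Snhg5 -0.072 with library totals and -0.013 with 8 mice.

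Leaving out 1 mouse gave 3 to 4 of the 8 genes called lower in GFP LNA livers. Polysome against total RNA, Snhg5 ran from -0.25 to 0.020 in GFP LNA and from -0.17 to 0.14 in SNORA73 LNA livers. Between treatments in total RNA, Snhg3 ran from -0.10 to 0.21, Rcc1 from -0.085 to 0.029, Snhg5 from -0.15 to 0.11 and Snhg8 from -0.17 to 0.078. In polysome RNA, Snhg3 ran from -0.18 to 0.23, Snhg1 from -0.25 to 0.032, Snhg5 from -0.020 to 0.28 and Snhg6 from -0.18 to 0.043. In the interaction, Snhg3 ran from -0.17 to 0.12, Snhg5 from -0.059 to 0.23 and Snhg6 from -0.012 to 0.15.

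Counts over all genes moved as follows. Between treatments in total RNA (0 lower, 4 higher), DESeq2 called 26 lower and 49 higher, no filter 3 and 10, and 8 mice 21 and 76, while library totals and the filter at 1 CPM gave 2 higher. In polysome RNA (0 lower, 2 higher), DESeq2 called 50 and 231, no filter 6 and 66, the filter at 1 CPM 2 and 29, a fit of all 20 libraries 75 and 242, 8 mice 4 and 27, and library totals 0 higher. In the interaction (1 lower, 0 higher), DESeq2 called 2 lower and 5 higher, limma-voom, the filter at 1 CPM, 8 mice and the replicate block 0 lower, and the block 1 higher. Leaving out 1 mouse gave 0 to 10 lower and 1 to 49 higher in total RNA, 0 to 2 lower and 0 to 15 higher in polysome RNA, and 1329 to 2164 lower and 1407 to 1930 higher in polysome against total RNA of SNORA73 LNA livers. The cause was not tested.

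The median r of Snhg3 with the other 7 genes in total RNA turned from -0.31 to 0.17 without mouse 10, an alternative chosen after seeing the data. Library totals moved the median of all genes to -0.14 in total and -0.17 in polysome RNA between treatments. Depth limits Snhg3 and Snhg5 most, each with as few as 37 counts in a library.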
